A study of Homo sapiens with 8 samples.

Results

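The genes described here encode matrix metalloproteinases (MMP), ADAM proteases, ADAMTS proteases, ADAMTS-like proteins (ADAMTSL) and tissue inhibitors of metalloproteinases (TIMP). They were taken by symbol (MMP, ADAM, ADAMTS or ADAMTSL followed by a number, and TIMP1 to TIMP4) from a table of 25603 genes, which held 54 of them: 17 MMP, 15 ADAM, 15 ADAMTS, 3 ADAMTSL and 4 TIMP genes. The table came from RNA-seq of HepG2, an established human hepatocarcinoma cell line, grown on gelatin-coated dishes in William's E medium. Cells received UNC1999 and Valmetostat Tosylate (valemetostat) together, each at 1 µM (EZHi), or DMSO alone (vehicle, 0.2% per the labels and a lower share per the study's methods), for 4 days. Both compounds inhibit EZH1 and EZH2, the enzymes that methylate lysine 27 of histone H3 as part of polycomb repressive complex 2 (PRC2). Each group had 4 libraries, and all came from this single cell line.

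MMPs, ADAMs and ADAMTSs are zinc-dependent proteases that are made as inactive precursors. MMPs cut collagens and other matrix proteins, membrane-anchored ADAMs release growth factors, cytokine receptors and adhesion molecules from the cell surface, and secreted ADAMTSs process proteoglycans, procollagens and von Willebrand factor. TIMPs bind the active site and block it. In liver these enzymes are best known from the turnover of scar matrix, where much of MMP2 and of the TIMPs is made by stellate cells, while ADAM10 and ADAM17 are used by most cell types.

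Values are length-corrected log2 expression, so that 1 unit is a 2-fold difference and levels of different genes can be compared. The same level is also given as an estimated FPKM (fragments per kilobase of transcript, scaled to library size). Read depth is unknown, since the values were normalized for it, and genes with few reads have differences shrunken toward 0. The test was limma, run on genes whose estimated FPKM averaged 0.1 or more, and a gene is said to have risen or fallen where the Benjamini-Hochberg adjusted p was under 0.05. Transcripts of the PRC2 genes EZH1, EZH2, EED and SUZ12 were not called (0 of 4), and since the compounds act on the enzymes this does not check the labels. The summed level of 8 hepatocyte markers was 23990 to 46880 FPKM in vehicle and 26350 to 42920 in EZHi, with none called. When the replicate number was added to the fit as a block, APOA1 and APOB were called higher (limma adjusted p = 0.00812 and 0.00155) and ALB lower (0.0314). The sum was 499 to 814 and 616 to 855 FPKM for 4 cholangiocyte markers. For 3 macrophage and leukocyte markers it was 1213 to 1687 and 1087 to 1558. None was called in either list unless the block was used, which called SOX9 and CSF1R higher (limma adjusted p = 0.0156 and 0.0374). LYZ alone averaged 1471 FPKM in vehicle and 1376 FPKM in EZHi, against 0.98 for CD14 and 0.21 for CSF1R over all libraries. CFTR, PTPRC, CD68 and CD163, also listed as markers, had no values. Among 4 fibroblast and stellate markers the sum was 12.4 to 15.2 and 15.2 to 17.6 FPKM, and PDGFRA rose (log2 fold change 0.92, limma adjusted p = 0.00503). COL1A1 (0.37) and PDGFRB (0.17) were not called, and COL3A1 was under 0.1 FPKM and not tested. COL1A2, DCN, LUM and THY1 had no values. Among 4 endothelial markers the sum was 1.84 to 2.24 and 2.46 to 4.91 FPKM, and CDH5 rose (2.28, limma adjusted p = 0.00411). PECAM1 (0.04) and STAB2 (-0.07) were not called, TEK was under 0.1 FPKM and not tested, and KDR had no values. PDGFRA and CDH5 moved with the risen proteases, and their part in those results was not tested.

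The catalytic zinc of these proteases is held by 3 histidines in a short motif (histidine, glutamate, any 2 residues, histidine, any 2 residues, glycine or asparagine, any 2 residues, histidine). The coding sequences of the Ensembl canonical transcripts in GENCODE release 44 (GRCh38) were searched for it. It was found in 16 of 16 MMP genes with a coding sequence, 11 of 15 ADAM and 14 of 15 ADAMTS genes, and in 0 of 3 ADAMTSL and 0 of 4 TIMP genes. The ADAMTS gene without a match was ADAMTS8, and whether it lacks activity was not tested. The 33 coding bases of the motif, or those aligned to it, are shown for some of the members that rose or fell. They set active proteases beside ADAM22 and ADAM23, in which the motif was not found. Capitals mark the codons of the 5 fixed motif positions, or the codons aligned to them.
MMP2 (chr16:55491827-55491859, plus strand, exon 8): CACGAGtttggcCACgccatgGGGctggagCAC
MMP15 (chr16:58040563-58040595, plus strand, exon 5): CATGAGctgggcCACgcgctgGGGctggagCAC
ADAM8 (chr10:133271880-133271912, minus strand, exon 11): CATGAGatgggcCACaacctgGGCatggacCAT
ADAM33 (chr20:3673422-3673454, minus strand, exon 11): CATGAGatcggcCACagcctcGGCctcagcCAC
ADAM22 (chr7:88134365-88134397, plus strand, exon 13): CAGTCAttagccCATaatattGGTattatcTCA
ADAM23 (chr2:206562239-206562271, plus strand, exon 13): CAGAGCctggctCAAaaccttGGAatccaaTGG
ADAM22 and ADAM23 were aligned to ADAM33 without a gap, and kept 2 and 1 of the 5 motif residues. ADAM11 and ADAM32, the other ADAM genes without a match, aligned only with a gap and are not shown.

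Of the 54 genes, 41 passed the filter on low values and 13 did not. Among the 41, 15 rose, 2 fell and 24 were not called, where 8.85% of all 20153 genes tested rose and 4.27% fell. At least 2-fold rises were seen for 6 of the 41, against 3.21% of all genes tested. The libraries of both groups did not overlap for 16 members that were higher and 2 that were lower in EZHi, against 10.7% and 7.93%. ADAM23, ADAM33, ADAMTS14 and MMP25 passed the filter only through their level in EZHi. Among the 37 members above the filter in both groups, 12 rose and 2 fell, against 8.29% and 4.31% of the 19911 genes that met the same condition. At least 2-fold rises were seen for 4 of these 37, against 608 of the 19911 genes. Their libraries did not overlap for 13 that were higher and 2 that were lower, against 2024 and 1597 of those genes. With no filter, 13 of 54 rose and 2 fell (24.1% and 3.7%), against 8.28% and 3.15% of 25603 genes. The numbers 1 to 4 that libraries of both groups carry were taken to pair them, which the labels do not state. With the replicate number as a block 17 members rose and 6 fell, where 14.9% and 15.1% of all genes tested did.

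The direction went with the level. Below 1 FPKM, 9 of 19 members rose and 0 fell, against 13.8% and 0.392% of all genes tested at that level. Of these members 4, including 3 of the 9 that rose, passed the filter only through their level in EZHi. Of all 7146 genes tested at that level 209 passed that way, and 134 of those rose. Between 1 and 10 FPKM, 6 of 12 rose and 0 fell, against 11.3% and 2.25%. At 10 FPKM and over, 0 of 10 rose and 2 fell, against 2.73% and 9.16%. The median log2 fold change was 0.19 over the 41 members and -0.01 over all genes tested. The most abundant members, by mean estimated FPKM, were ADAM10 (121.5), MMP15 (77.6), TIMP1 (42.2), ADAM9 (39.5), TIMP3 (35.3), ADAM15 (30.7) and ADAMTS2 (27.7).

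**Figure D1:**
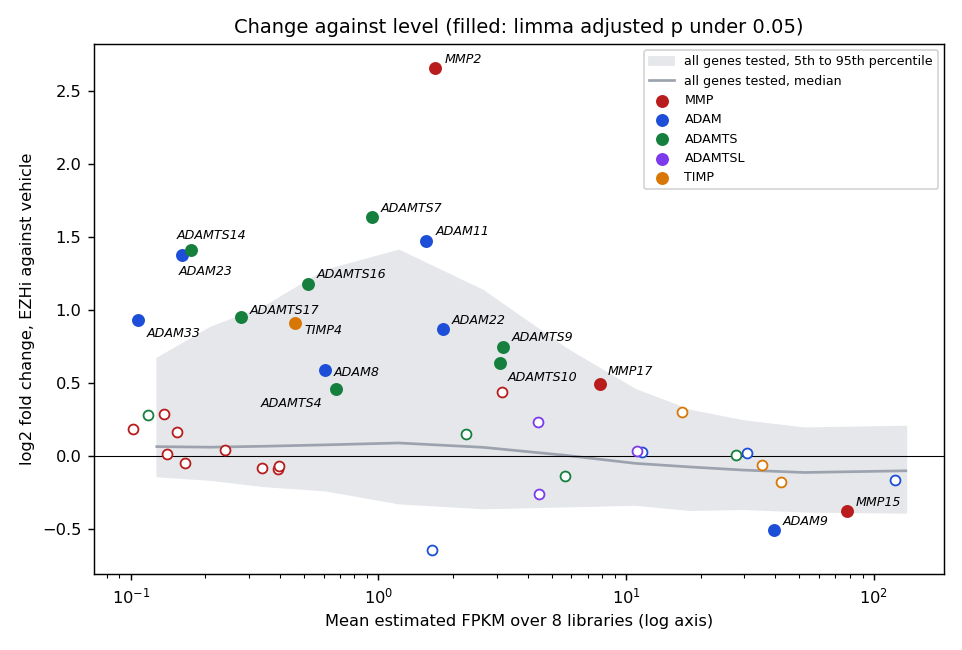
Log2 fold change (EZHi against vehicle) of the 41 tested members against their mean estimated FPKM over 8 libraries (log axis), coloured by family, with called genes filled and named. The line and band are the median and the 5th to 95th percentile of all genes tested at each level. MMP2 lies highest at 2.66, and the called genes that fell, ADAM9 and MMP15, lie among the most abundant members.

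MMP2, a gelatinase that degrades denatured collagen and type IV collagen, rose most of all members. Its values (ENSG00000087245, chr16:55389700-55506691) were 3.42, 3.55, 3.45 and 3.77 in vehicle replicates 1 to 4, and 5.92, 6.61, 5.94 and 6.33 in EZHi. All EZHi libraries lay far above all vehicle libraries. The mean went from 3.55 ± 0.16 to 6.20 ± 0.34 (SD, n = 4 each), a 6.30-fold difference (log2 fold change 2.66, SE 0.17, limma adjusted p = 1.05e-05), and ranked 31 from the top among the 20153 genes tested. As a level it was 0.458 FPKM in vehicle and 2.93 FPKM in EZHi, so MMP2 stayed far below MMP15 and ADAM10.

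The other gelatinase, MMP9, was near 0.139 FPKM in both groups, with a log2 fold change of 0.01 (95% interval -0.18 to 0.20, limma adjusted p = 0.971). Of its exonic bases, 18.4% overlap SLC12A5-AS1 on the opposite strand, which rose by 0.68 (limma adjusted p = 0.00519). Reads were counted without strand, so those on the shared bases could not be assigned to either gene. MMP2 and MMP9 therefore stood apart in value, although the difference between them was not tested. MMP1, the only collagenase analysed here, lay below the filter, at -0.01 to 0.07 in vehicle and -0.01 to 0.28 in EZHi. MMP7, the small matrilysin of epithelia, lay between 1.61 and 1.72 in vehicle and 1.72 and 2.26 in EZHi, and was not called (0.29, limma adjusted p = 0.126). Its level was near the filter, at 0.122 FPKM in vehicle and 0.150 FPKM in EZHi.

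Of the membrane-type MMPs, which act at the cell surface, 6 were tested, of which 1 rose and 1 fell, where 8.85% and 4.27% of all genes tested did. MMP15 (ENSG00000102996, chr16:58025754-58046901), the most abundant MMP, was at 11.21, 11.14, 10.99 and 11.18 in vehicle and at 10.78, 10.88, 10.75 and 10.58 in EZHi. Every EZHi library lay below every vehicle library. MMP15 fell by 0.38 on the log2 scale (SE 0.08, limma adjusted p = 0.0113), from 87.8 to 67.4 FPKM. MMP17, which is anchored by a lipid, rose by 0.49 (SE 0.12, limma adjusted p = 0.027), from 6.51 to 9.19 FPKM. Its call was lost when vehicle replicate 3 or 4 or EZHi replicate 1, 2 or 4 was left out (limma adjusted p from 0.0564 to 0.0767).

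MMP14, the membrane-type enzyme that activates pro-MMP2 together with TIMP2, was at 6.05, 5.72, 6.08 and 6.46 in vehicle and at 6.46, 6.20, 6.94 and 6.46 in EZHi. The ranges overlapped, and the log2 fold change of 0.44 (95% interval 0.02 to 0.86) was not called (limma adjusted p = 0.169), but it was with the replicate block (limma adjusted p = 0.0317). The remaining tested MMPs (MMP3, MMP19, MMP20, MMP21, MMP23B, MMP24 and MMP25) had log2 fold changes between -0.09 and 0.19, and none was called. MMP23B and MMP23A are near-identical copies, so their counts are uncertain. MMP10, MMP16 and MMP23A lay below the filter.

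**Figure D2:**
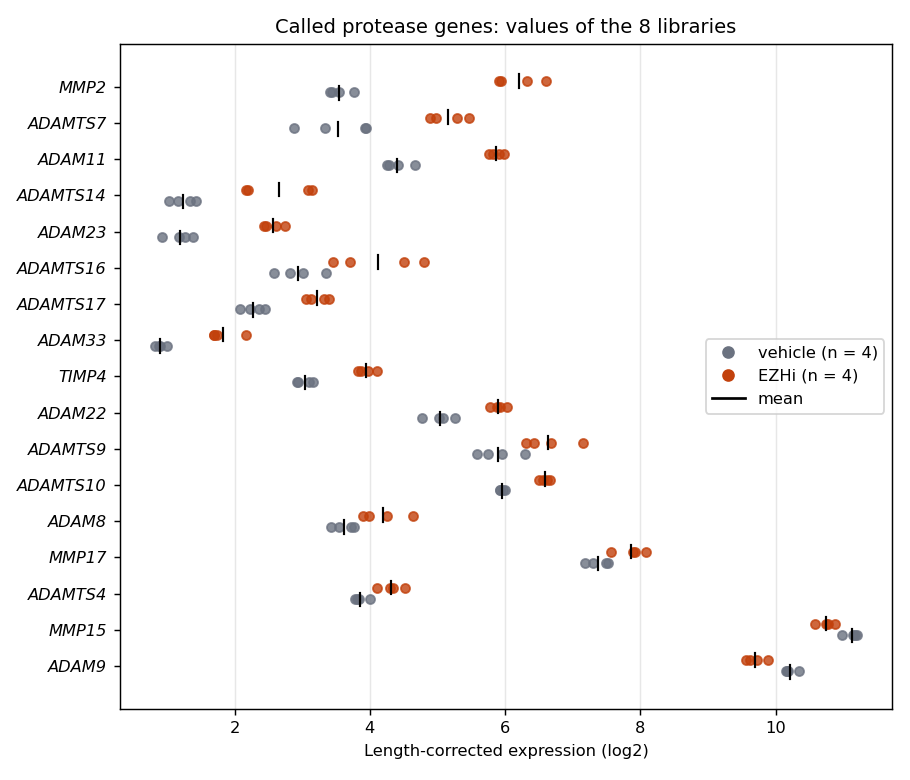
Length-corrected log2 expression of the 17 called members in each of the 4 vehicle (grey) and 4 EZHi (orange) libraries, with a black bar at each group mean. Libraries of MMP2 sit between 3.42 and 3.77 in vehicle and between 5.92 and 6.61 in EZHi, and for all 17 genes the groups do not overlap.

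Among the ADAMs, 5 of 10 tested genes rose and 1 fell, against 8.85% and 4.27% of all genes tested, and 2 of the 5, ADAM23 and ADAM33, passed the filter only through their level in EZHi. With the replicate block 5 rose and 3 fell, against 14.9% and 15.1%. ADAM11, ADAM22 and ADAM23 are the tested ADAMs without the zinc motif, and are known as adhesion proteins of neurons, where ADAM22 and ADAM23 bind the secreted protein LGI1. All 3 rose. ADAM11 (ENSG00000073670, chr17:44758988-44781846) was at 4.66, 4.28, 4.25 and 4.41 in vehicle and at 5.92, 5.83, 5.76 and 5.98 in EZHi. Every EZHi library lay over 1 log2 unit above the highest vehicle library. The log2 fold change was 1.47 (SE 0.12, limma adjusted p = 4.03e-05), from 0.831 to 2.29 FPKM.

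ADAM23 (ENSG00000114948, chr2:206443532-206621127) was at 1.27, 1.38, 0.93 and 1.18 in vehicle, under the filter, and at 2.61, 2.75, 2.46 and 2.43 in EZHi. It differed by 1.37 (SE 0.11, limma adjusted p = 3.63e-05) but stayed low, at 0.0896 and 0.232 FPKM. ADAM22 (ENSG00000008277, chr7:87934143-88202889) was the most abundant of these 3 genes in vehicle, at 5.02, 5.27, 5.08 and 4.77, and reached 6.03, 5.92, 5.78 and 5.88 in EZHi. Its log2 fold change was 0.87 (SE 0.12, limma adjusted p = 0.0013). Among the 7 tested ADAMs with the motif, 2 rose, 1 fell and 4 were not called, and the difference from the ADAMs without it was not tested.

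ADAM33, a protease known from airway smooth muscle, was at 1.00, 0.89, 0.82 and 0.90 in vehicle and at 2.17, 1.70, 1.74 and 1.70 in EZHi, a log2 fold change of 0.93 (SE 0.11, limma adjusted p = 3.47e-04). Its level was low in both groups (0.0731 and 0.140 FPKM). ADAM8, best known from leukocytes, was at 3.43, 3.55, 3.72 and 3.77 in vehicle and at 4.00, 4.26, 3.90 and 4.64 in EZHi. The groups lay close to each other, and the rise of 0.58 (SE 0.16) was close to the threshold (limma adjusted p = 0.0455). It was lost when any 1 library other than EZHi replicate 3 was left out (limma adjusted p from 0.0551 to 0.122).

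The abundant ADAMs that shed surface proteins did not rise. ADAM9 was at 10.17, 10.35, 10.15 and 10.18 in vehicle and at 9.72, 9.89, 9.63 and 9.56 in EZHi, with no overlap. It fell by 0.51 on the log2 scale (SE 0.08, limma adjusted p = 0.00334), from 46.4 to 32.7 FPKM. ADAM10, the alpha-secretase that also cuts Notch receptors and the most abundant member, was at 128.7 FPKM in vehicle and 114.3 FPKM in EZHi. Its log2 fold change of -0.17 was not called (limma adjusted p = 0.241) unless the replicate block was used (limma adjusted p = 0.0143). Without the block it was -0.04 with quantile normalization and -0.07 after centring on genes of at least 10 FPKM (limma adjusted p = 0.763 and 0.637). With the block 2538 of 7809 genes at 10 FPKM and over were lower. ADAM17, which releases TNF and EGF receptor ligands, stood at 8.03 to 8.36 in vehicle and 8.14 to 8.36 in EZHi, with a difference of 0.02 (95% interval -0.18 to 0.22). Of its exonic bases 10.3% overlap IAH1 on the other strand, which fell by 0.29 (limma adjusted p = 0.0323). ADAM15 differed by 0.02 (95% interval -0.25 to 0.28).

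ADAM19, which cuts neuregulin precursors, varied most within groups. It was at 5.75, 6.45, 4.46 and 5.53 in vehicle and at 5.08, 5.66, 4.30 and 4.56 in EZHi, lower in EZHi for each replicate number although the groups overlapped. The log2 fold change of -0.65 (95% interval -1.57 to 0.28) was not called without the block (limma adjusted p = 0.365) and was called with it (limma adjusted p = 0.00747). ADAM12, a protease of muscle and placenta, was at -1.15 in vehicle replicate 4 and close to -1.24 in the other libraries. ADAM12, ADAM20, ADAM21, ADAM28 and ADAM32 lay below the filter.

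Of the ADAMTS genes, 7 of 11 tested rose and 0 fell, against 8.85% and 4.27% of all genes tested, and 1 of the 7, ADAMTS14, passed the filter only through its level in EZHi. ADAMTS7 (ENSG00000136378, chr15:78759206-78811464), which cuts cartilage oligomeric matrix protein (COMP), rose most, from 3.33, 3.95, 2.88 and 3.93 in vehicle to 4.89, 5.47, 4.98 and 5.28 in EZHi. All EZHi libraries lay above all vehicle libraries, which were the more spread out. The log2 fold change was 1.63 (SE 0.24, limma adjusted p = 0.00178), or 0.470 against 1.41 FPKM. Proteoglycan-cleaving ADAMTS4 and ADAMTS9 both rose. ADAMTS9 went from 2.37 to 4.01 FPKM (0.75, SE 0.21, limma adjusted p = 0.0422) and ADAMTS4 from 0.568 to 0.783 FPKM (0.46, SE 0.11, limma adjusted p = 0.0261). ADAMTS9 was not called without vehicle replicate 1, 2 or 4 or EZHi replicate 1, 3 or 4 (limma adjusted p from 0.0654 to 0.109), nor ADAMTS4 without vehicle replicate 1, 2 or 3 or EZHi replicate 1, 2 or 4 (from 0.0522 to 0.0748). ADAMTS9-AS1, which overlaps 1.63% of the exonic bases of ADAMTS9 from the opposite strand, rose too (0.59, limma adjusted p = 0.0233).

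Procollagen N-proteinases remove the amino-terminal propeptide of fibrillar collagens, and the 2 that were tested had different values. ADAMTS14 was at 1.33, 1.43, 1.03 and 1.17 in vehicle and at 2.17, 3.09, 2.19 and 3.14 in EZHi. Replicates 2 and 4 lay well above replicates 1 and 3 in EZHi, and all 4 lay above vehicle. Its log2 fold change was 1.41 (SE 0.23, limma adjusted p = 0.00306). ADAMTS2, at 27.7 FPKM the most abundant ADAMTS, differed by 0.01 (95% interval -0.22 to 0.24), and ADAMTS3 lay below the filter.

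ADAMTS10 and ADAMTS17 belong to a group linked to fibrillin microfibrils. ADAMTS10 was at 5.96 ± 0.04 in vehicle and 6.59 ± 0.07 in EZHi (SD, n = 4 each), the smallest SDs among the called members in either group, and rose by 0.64 (SE 0.08, limma adjusted p = 8.22e-04). ADAMTS17 rose by 0.95 (SE 0.11, limma adjusted p = 4.19e-04), from 0.191 to 0.367 FPKM. ADAMTS16 was at 3.01, 2.58, 3.36 and 2.82 in vehicle and at 3.71, 3.46, 4.80 and 4.51 in EZHi (1.18, SE 0.29, limma adjusted p = 0.0265). Its groups came close to each other, and the call was lost without vehicle replicate 1, 2 or 4 or EZHi replicate 3 or 4 (limma adjusted p from 0.0514 to 0.0829).

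ADAMTS13, the liver-made protease that cuts von Willebrand factor, was at 5.06 to 6.15 in vehicle and 5.54 to 6.24 in EZHi and was not called (0.15, 95% interval -0.37 to 0.68, limma adjusted p = 0.748). ADAMTS6, at 5.64 FPKM, was not called either (-0.14, limma adjusted p = 0.744), and neither was ADAMTS18 (0.28, limma adjusted p = 0.130). ADAMTS1 stood at -2.71 in all vehicle libraries and at -2.71 to -2.36 in EZHi, below the filter like ADAMTS3, ADAMTS8 and ADAMTS15. ADAMTSL proteins share the ancillary domains of ADAMTSs but lack a protease domain, and 0 of 3 were called. ADAMTSL4 was at 11.1 FPKM (0.03, limma adjusted p = 0.902), ADAMTSL2 at 4.42 FPKM (0.23, limma adjusted p = 0.570) and ADAMTSL5 at 4.43 FPKM (-0.26, limma adjusted p = 0.298, or 0.0468 with the replicate block).

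The 4 TIMPs were all tested, and 1 rose, where 8.85% of all genes tested did. TIMP4 (ENSG00000157150, chr3:12153068-12158912) was at 2.92, 3.16, 2.94 and 3.11 in vehicle and at 3.98, 4.10, 3.83 and 3.87 in EZHi. Every EZHi library lay above every vehicle library. The log2 fold change was 0.91 (SE 0.10, limma adjusted p = 2.94e-04), from 0.321 to 0.603 FPKM, so TIMP4 remained the least abundant TIMP. SYN2 overlaps 14.2% of its exonic bases on the opposite strand, and stood near 0.04 FPKM in both groups, below the filter.

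TIMP1, TIMP2 and TIMP3 were at 42.2, 16.8 and 35.3 FPKM, and the ranges of TIMP1 and TIMP3 overlapped in each group. TIMP1, which binds pro-MMP9, was at 10.23, 10.62, 9.43 and 10.18 in vehicle and at 9.98, 10.37, 9.42 and 9.95 in EZHi. The difference of -0.18 was not called (limma adjusted p = 0.712), but was with the replicate block (limma adjusted p = 0.0323). TIMP2, the partner of MMP14 in pro-MMP2 activation, was at 8.45, 8.91, 8.27 and 8.65 in vehicle and at 8.84, 9.06, 8.64 and 8.96 in EZHi, higher in EZHi for each replicate number. Its 0.30 was likewise called only with the block (limma adjusted p = 0.209 without it and 0.00462 with it). TIMP3, which stays bound to matrix and inhibits ADAM17, ranged from 9.05 to 10.54 in vehicle and from 9.13 to 10.42 in EZHi (-0.07, 95% interval -0.81 to 0.67, limma adjusted p = 0.930). In all, 6 members were called only with the block, 2 higher and 4 lower. Over all 20153 genes tested, 1784 were called higher and 860 lower without the block, and 3003 and 3048 with it.

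**Figure D3:**
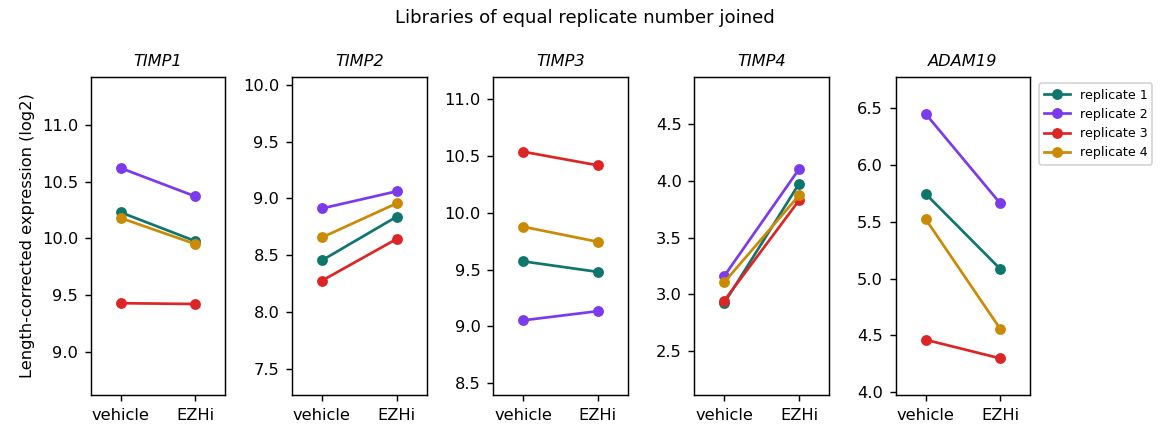
Length-corrected log2 expression of the 4 TIMPs and ADAM19 in vehicle and EZHi, with libraries of the same replicate number joined. The vertical axes span the same number of log2 units. TIMP4 rises in each of the 4 pairs by more than its libraries differ within a group, whereas TIMP3 and ADAM19 differ more between replicate numbers than between groups.

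Differences between replicate numbers ran through several members. In 6 of the 41 tested members the vehicle libraries spanned at least 1 log2 unit (ADAM19 1.99, TIMP3 1.49, TIMP1 1.19, ADAMTSL2 1.12, ADAMTS13 1.09 and ADAMTS7 1.07), where the median span was 0.395. For 6 of these 6 the same number was highest in both groups, and for 5 the same number was lowest. Replicate 3 was the lowest or highest vehicle library in all 6. Without replicate 3 in both groups, an alternative chosen after seeing the data, 15 members rose and 2 fell.

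Promoters of ADAM23 and TIMP4, both of which rose from a low level, are shown as examples chosen after their rises were seen. ADAM23 passed the filter only through its level in EZHi. PRC2 is known to act at CpG-rich promoters, but a part of CG content in these rises was not tested. Capitals mark CG pairs in the 250 bases before the start site (RefSeq, GRCh38.p14, 5′ to 3′ on the strand of the gene).
ADAM23 (chr2:206443282-206443531, plus strand): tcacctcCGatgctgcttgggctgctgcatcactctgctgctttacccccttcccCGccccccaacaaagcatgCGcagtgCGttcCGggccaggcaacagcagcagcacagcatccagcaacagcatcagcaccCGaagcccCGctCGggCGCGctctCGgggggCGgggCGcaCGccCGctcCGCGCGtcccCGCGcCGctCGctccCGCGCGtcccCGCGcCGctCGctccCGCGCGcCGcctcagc
TIMP4 (chr3:12158913-12159162, minus strand): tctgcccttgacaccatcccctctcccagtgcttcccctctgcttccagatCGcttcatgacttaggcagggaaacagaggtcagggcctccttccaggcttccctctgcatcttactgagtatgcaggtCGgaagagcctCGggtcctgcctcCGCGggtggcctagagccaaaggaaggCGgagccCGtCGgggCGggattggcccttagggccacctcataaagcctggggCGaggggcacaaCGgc
The ADAM23 stretch held 33 CG pairs, more than 91.9% of the 35116 promoters in the table, and the TIMP4 stretch held 11, the median of the table. The motif GGGCGG, searched on both strands, occurred 2 times in ADAM23 and 1 time in TIMP4, and 42.6% of all promoters held it. Only 33 of the 54 members matched an entry (61.1%), too few to stand for the list, so a comparison of CG content between members that rose and others would be void and was not made. Histone methylation was not measured in these libraries.

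Other genes of the same pathway were listed by role, and 53 of 59 were in the table, of which 47 were tested. Of these 10 rose and 3 fell, against 8.85% and 4.27% of all genes tested, and with the replicate block 18 rose and 9 fell, against 14.9% and 15.1%. Of the ADAMTS substrates and binding partners 6 of 11 rose and 0 fell, against the same 8.85% and 4.27%. With the block 7 of the 11 were higher and 0 lower, against the same 14.9% and 15.1%. COMP, the ADAMTS7 substrate, was at 7.54, 7.76, 6.03 and 6.91 in vehicle and at 9.64, 9.89, 9.65 and 9.68 in EZHi. The EZHi libraries were close together and well above vehicle (2.66, SE 0.32, limma adjusted p = 4.29e-04), at 5.74 against 32.9 FPKM. VCAN, the proteoglycan versican, which ADAMTS4 and ADAMTS9 can cut, lay between 6.35 and 7.97 in vehicle and between 8.31 and 9.28 in EZHi (1.65, SE 0.34, limma adjusted p = 0.0115).

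VWF, the substrate of ADAMTS13, rose by 1.45 (SE 0.26, limma adjusted p = 0.00537), from 0.642 to 1.86 FPKM. VWF is also an endothelial gene. Of the endothelial markers given above CDH5 rose with it, and PECAM1 and STAB2 were not called. The microfibril genes FBN1 (1.10, limma adjusted p = 0.00353), THSD4 (0.78, limma adjusted p = 1.06e-04) and FBN2 (0.62, limma adjusted p = 0.0136) rose as well. Of the 2 related metalloproteinases tested, MEP1A, the meprin alpha subunit, rose from 6.85 to 19.9 FPKM (1.57, SE 0.26, limma adjusted p = 0.00361), and BMP1 was not called.

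Among the endogenous regulators 3 of 6 rose and 0 fell, where 8.85% and 4.27% of all genes tested did. RECK, a membrane-anchored inhibitor of MMP2, MMP9 and MMP14, was at 5.42, 5.38, 5.88 and 5.76 in vehicle and at 6.52, 6.48, 7.09 and 6.67 in EZHi. The groups did not overlap (1.08, SE 0.17, limma adjusted p = 0.00222). The testican genes SPOCK1 (0.78, limma adjusted p = 0.00398) and SPOCK2 (0.37, limma adjusted p = 0.0165) rose too, the second at 145.7 FPKM in vehicle. With the replicate block 4 of the 6 were higher and 0 lower, against 14.9% and 15.1% of all genes tested. The added gene was A2M, at 2170 FPKM in vehicle and 3009 FPKM in EZHi. Its log2 fold change was 0.51 (limma adjusted p = 0.00197 with the block and 0.1965 without it). Of the 8 genes of zymogen activation, which include FURIN and the plasminogen activators, 0 were called. With the replicate block 2 were higher and 2 lower, against 14.9% and 15.1% of all genes tested.

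Without the replicate block, 0 of 9 tested cofactors of ADAM10 and ADAM17 rose and 1 fell. Of 11 tested shed substrates 0 rose and 2 fell, against 8.85% and 4.27% of all genes tested. With the block 3 of 9 cofactors (TSPAN5, TSPAN15 and TSPAN33) were higher and 2 lower. Of the 11 shed substrates 1 (L1CAM) was higher and 5 lower, against 14.9% and 15.1% of all genes tested. Of the cofactors 6, and of the shed substrates 7, averaged 10 FPKM or more. At that level the block called 640 of 7809 genes higher and 2538 lower. TSPAN14, a tetraspanin that carries ADAM10 to the surface, fell by 0.72 (SE 0.14, limma adjusted p = 0.0067), from 83.3 to 50.6 FPKM. The shed substrates that fell without the block were AXL and HBEGF. AXL, a receptor tyrosine kinase, was at 8.16, 8.45, 8.17 and 8.33 in vehicle and at 7.33, 7.39, 7.32 and 7.18 in EZHi, and fell by 0.97 (SE 0.09, limma adjusted p = 9.29e-05). HBEGF, an EGF receptor ligand, fell by 0.50 and lay close to the threshold (limma adjusted p = 0.0495).

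**Figure D4:**
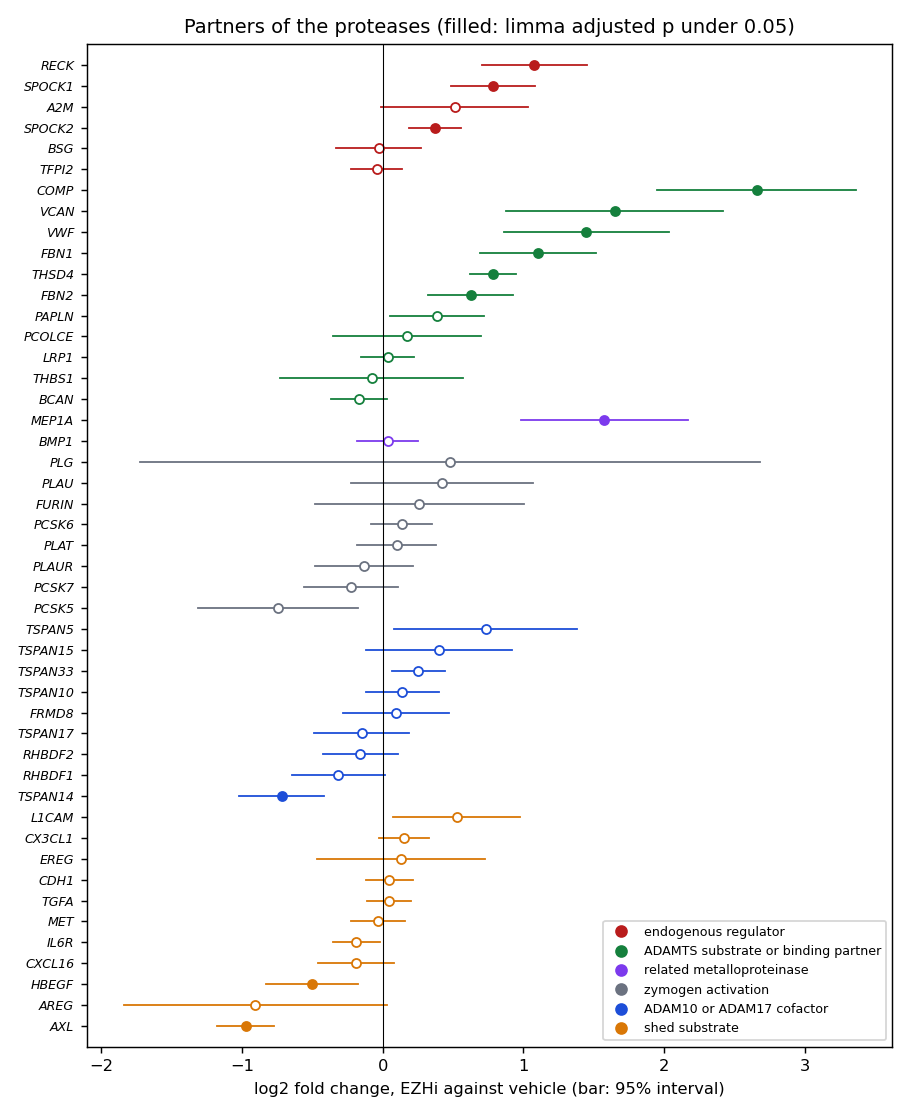
Log2 fold change (EZHi against vehicle) of the 47 tested partner genes, with bars for the 95% interval, coloured by role, and filled where limma's adjusted p was under 0.05. COMP lies highest at 2.66 and AXL lowest at -0.97.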

How the data were processed

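RNA-seq was measured in 8 HepG2 libraries, 4 with EZHi and 4 with vehicle, grouped by sample title. Per the study's methods, with tool versions from the submitters' processing notes (the methods give other versions of HISAT2 and DESeq2), the authors aligned reads to hg38 with HISAT2 2.2.1, counted them over exons without strand with HTSeq 0.9.1, removed genes with very few reads, and transformed counts with the regularized log of DESeq2 1.40.2 followed by a correction for mean transcript length. The deposited values are therefore on a log2 scale (-6.81 to 19.01), although the table is named as FPKM. The transformation shrinks differences of low genes. Reads that fall on overlapping genes or near-identical copies cannot be assigned to a single gene. The counting mode given in the methods (union) leaves reads on overlapping genes out. Depth per library is unknown. Values multiplied back by length summed to 24.4 to 27.3 per library (in 1e6 normalized reads), and their mean, 25.6, set the scale of the estimated FPKM.

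Of 25603 genes (5614 without a symbol, 25594 found in GENCODE release 44), 20153 had a mean estimated FPKM of at least 0.1 and were tested with limma 3.58.1 in R 4.3.3 (lmFit with group alone as a term, then eBayes with its trend option). Tests were two-sided with Benjamini-Hochberg adjustment over all of these genes. The fit was tested on simulated data in which libraries of the same number shared no deviation, so that test does not cover the pairing. Python 3.11.15 was used for the rest. The study calls the libraries of a group biologically independent. Libraries of the same number deviated together from their group means (r = 0.310, 0.558, 0.634 and 0.216 for numbers 1 to 4, across genes), so the numbers given in the titles were taken to pair the libraries, and the fit with the number as a block was run as an alternative. Other alternatives changed the filter, a pseudocount (0.1, 0.5 or 1 FPKM), the normalization, the prior and the libraries.

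Named members were those called, all TIMPs, a list of well-known proteases, the 3 most abundant of each protease family, and those called only with the block. Members given as a range or as lying below the filter are named to account for all 54. Partners named were those called, up to 10 by size. FBN2, SPOCK2, HBEGF, BMP1, A2M, TSPAN5, TSPAN15, TSPAN33 and L1CAM are named beyond that rule, after their values were seen. The members and lists were chosen with earlier results of these data known.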

Additional observations from a re-analysis of the deposited data

Results flagged for a closer look

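In 4 of the 82 groups of 4 libraries examined over the 41 tested members, 1 library stood apart from the others, with a gap to its nearest neighbour that took up most of the group's range (beyond Dixon's 95% critical value). Chance gives about 4.1 such groups. ADAM15 was at 9.25 in vehicle replicate 3 and at 9.70 to 9.74 in the other vehicle libraries (gap 0.914 of the range). ADAM33 was at 2.17 in EZHi replicate 1 and at 1.70 to 1.74 in the others (0.903). MMP19 was at 2.29 in EZHi replicate 2 and at 1.95 to 1.98 in the others (0.912). MMP7 was at 1.72 in vehicle replicate 4 and at 1.61 to 1.63 in the others (0.849). In these groups MMP7, ADAM33 and MMP19 lay near the filter, at 0.122, 0.140 and 0.162 FPKM. Read counts are unknown, so whether such gaps reflect more than a few reads cannot be told.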

How the results depend on the processing

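Of 17 called members (15 higher, 2 lower), 8 were called, 6 of them higher, with a filter at 1 FPKM, which by construction tests fewer genes. With the replicate block 6 members were lower, and 27 partners were called (18 higher, 9 lower) against 13 (10 and 3) without it. For the 6 members named above the block changed the call, and it changed no other member's call. Over all genes tested 14.9% were higher and 15.1% lower with the block. Leaving out 1 library gave 12 to 15 called members (10 to 13 higher, 2 lower) and 11 to 15 partners (9 to 11 higher, 2 to 4 lower), with the lowest member count without EZHi replicate 4. ADAM8 was no longer called without 7 of the 8 libraries in turn, with no filter (limma adjusted p = 0.0551), with a pseudocount of 1 (0.0555) or with quantile normalization (0.165). ADAMTS4 and ADAMTS9 were each lost without 6 of the libraries, MMP17 and ADAMTS16 without 5. Quantile normalization also lost ADAMTS4 (limma adjusted p = 0.194), ADAMTS9 (0.0981) and ADAMTS16 (0.0518), a pseudocount of 1 lost ADAMTS9 and ADAMTS16 (0.0576 and 0.0526), and no filter and a pseudocount of 0.5 lost ADAMTS9 (0.057 and 0.0522). MMP7 was called (0.38, limma adjusted p = 0.0341) after centring on genes of at least 10 FPKM, which moved the median of all genes from -0.01 to 0.09. The cause of these changes was not tested. MMP2, ADAM11, ADAM22, ADAM23, ADAM33, ADAMTS7, ADAMTS10, ADAMTS14, ADAMTS17, TIMP4, ADAM9 and MMP15 kept their calls in every alternative that tested them.

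Reversals of direction were limited to members that were not called. With quantile normalization the log2 fold change was -0.010 for ADAMTS13, -0.13 for MMP9 and 0.022 for TIMP3, which was 0.028 after centring. Leaving out a library or a replicate number gave ranges that crossed 0: -0.10 to 0.080 for ADAM15, -0.034 to 0.075 for ADAM17, -0.077 to 0.29 for ADAMTS13, -0.079 to 0.067 for ADAMTS2, -0.26 to 0.066 for ADAMTS6, -0.051 to 0.091 for ADAMTSL4, -0.062 to 0.049 for MMP9 and -0.31 to 0.19 for TIMP3. Depth is unknown, so no limit from counting error can be given.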
